A study of Mus musculus with 2 samples.

Results

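Aplnr, the gene for the apelin receptor, and Apln, the gene for its peptide ligand apelin, were read in mouse embryoid bodies grown with or without FGF10. The members are the probe sets that the platform annotation pairs with exactly 1 gene symbol, Aplnr or Apln. There were 3 of them, 2 for Aplnr and 1 for Apln, among 45037 probe sets that are not chip controls, 34945 of which have 1 gene each. The receptor was chosen because its ratio between these arrays was known to be large, so its values and those of its ligand from the same comparison are a description and support nothing further.

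The apelin receptor is a rhodopsin-family receptor that couples mainly to inhibitory G proteins. It has 2 known peptide ligands, apelin and the product of Apela (Elabela, also called Toddler), both secreted and cut from longer precursors. In zebrafish embryos the Apela peptide acts through this receptor in the movement of mesendoderm cells at gastrulation. In mouse embryos Aplnr is expressed in mesoderm leaving the primitive streak and later in the vasculature, where apelin marks the tips of growing vessels, and Apln is known as a gene induced by low oxygen.

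Embryoid bodies, aggregates in which embryonic stem cells start to differentiate, were made in hanging drops from CGR8 cells, a mouse embryonic stem cell line of strain 129 cultured without feeder cells. The control group was 1 sample in differentiation medium with no added agent, and the FGF10 group was 1 sample in the same medium with recombinant FGF10, a secreted fibroblast growth factor, at 100 ng/ml. The labels place both samples at day 2, while the series' design text has treatment begin at that age and RNA follow 24 h later. A single array stands for each group, so there is no p-value and no replicate to check against, and every ratio describes this pair of arrays.

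The values are MAS5 signals, which are linear and scaled so that both arrays have the same trimmed mean, and a ratio is log2 of FGF10 over control after subtracting the median over all kept probe sets. Kept probe sets have a mean signal over both arrays of at least 76.35, which is the median of that mean over the 45037 probe sets. The 3' to 5' signal ratios of the chip's actin and Gapdh control probe sets, a sign of RNA integrity, were 1.27 and 0.812 for the control sample and 1.23 and 0.811 for the FGF10 sample. The pluripotency genes Pou5f1 (8157.8 and 8787.2), Nanog (6616.1 and 7878.5) and Sox2 (5812.7 and 5941.8), given as control and FGF10 signals, were bright on both arrays. Esrrb, from the same list, was dim at 141.7 and 126.3. Of the 9 genes in that list 2 were at least 1.5-fold lower with FGF10, Utf1 (-0.73) and Zfp42 (-0.71), and 0 were higher. Over all measured genes 4.86% were lower and 5.41% higher. Of 8 genes of fibroblast feeder cells, 6 were under 76.35 on both arrays, and their summed signal was 603.4 on the control and 465.2 on the FGF10 array.

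Aplnr was far higher on the FGF10 array on both of its probe sets. On the brighter one, 1438651_a_at, the signal was 54 without FGF10 and 1187.6 with it. The log2 ratio was 4.42, or 21.5-fold. The control signal lay under 76.35, where background may account for the level. With that signal raised to 76.35 the ratio was 3.92, a bound of at least 15.2-fold for the signals of this probe set on these arrays.

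The other Aplnr probe set, 1423037_at, was dimmer, with signals of 35.2 without and 180.6 with FGF10. Its log2 ratio was 2.32 (5.01-fold), and 1.21 (at least 2.31-fold) with the control signal raised to 76.35. Both probe sets of the receptor thus lay under 76.35 without FGF10 and above it with FGF10, and each passed the signal filter only through the FGF10 array.

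Apln was also higher on the FGF10 array, by less than its receptor. Its only probe set, 1451038_at, read 318.4 in the control and 779.5 with FGF10 for a log2 ratio of 1.26 (2.39-fold). Unlike those of the receptor, both Apln signals lay above 76.35, and the ratio was the same with dim signals raised. On the control array the receptor's signals, unlike that of Apln, were thus in the range where MAS5 values may be background. The value 76.35 is a median of signals and not a detection limit, so detection of the Aplnr and Apln transcripts in the control was not tested. Whether more cells carried these transcripts or each cell held more of them cannot be told apart in bulk RNA.

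**Figure D1:**
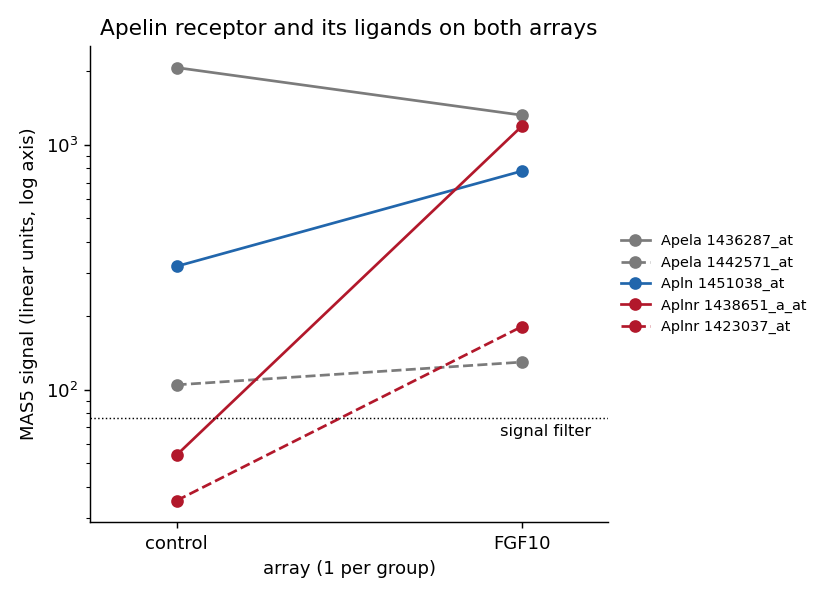
MAS5 signal (linear units on a log axis) of each probe set of Aplnr, Apln and Apela on the control and the FGF10 array, 1 array per group; lines join the values of 1 probe set and the dotted line is the signal filter of 76.35. Both Aplnr probe sets cross the filter from control to FGF10, Apln is above it on both arrays, and the brighter Apela probe set is lower with FGF10; heights of different probe sets are not comparable levels.

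Both member genes were at least 2-fold higher with FGF10, as were 147 of all 11122 measured genes (1.32%), while 144 (1.29%) were at least 2-fold lower, each read from its brightest kept probe set. Since the receptor was picked from this comparison, nothing is read from that count. Aplnr had the highest ratio of all 11122 genes and kept rank 1 with dim signals raised to 76.35, while Apln stood at rank 73 and at rank 57 with dim signals raised. Among 22524 kept probe sets the brighter Aplnr probe set was at rank 2, the dimmer one at rank 28 and Apln at rank 166.

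Ratios scatter more among dim probe sets, so each member was set beside the 1000 kept probe sets nearest to it in mean signal. Around the brighter Aplnr probe set, with mean signals of 567.5 to 679.4, the central 98% of ratios ran from -0.85 to 0.92. Around the dimmer one, with mean signals of 100.5 to 115.8, it ran from -1.35 to 1.36. Around Apln, with mean signals of 501.9 to 600.3, it ran from -0.87 to 0.98. All 3 member ratios lay above the upper end of their range, the dimmer Aplnr probe set below it once its control signal was raised to 76.35. For the receptor this place was given by its choice for a large ratio. The probe sets beside it share its mean signal only, and that mean comes mostly from the FGF10 array. These ranges describe the spread between this pair of arrays and not the spread between cultures.

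**Figure D2:**
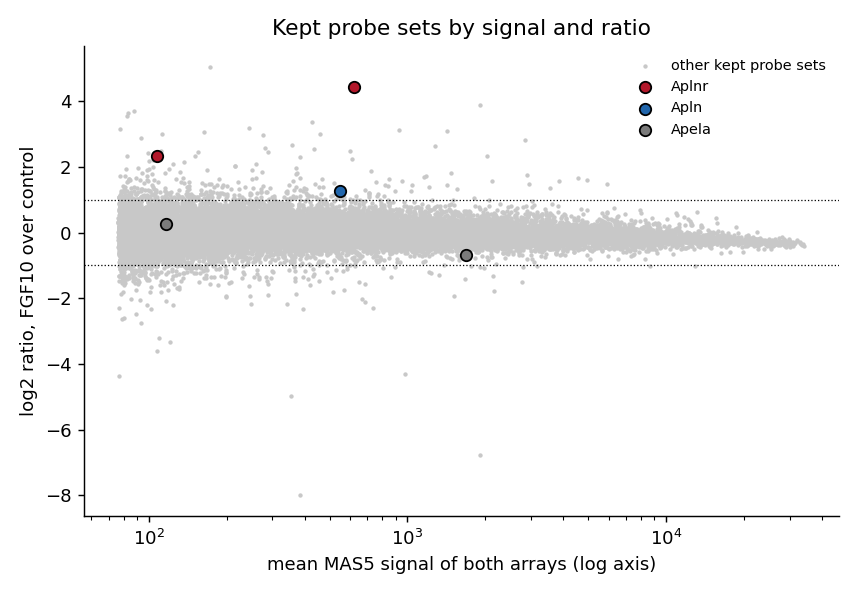
Log2 ratio of FGF10 over control against the mean MAS5 signal of both arrays (log axis) for the 22524 kept probe sets, with Aplnr, Apln and Apela coloured and dotted lines at 2-fold. Aplnr at 4.42 and 2.32 and Apln at 1.26 lie above most probe sets of like brightness, and the brighter Apela probe set lies at -0.68.

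The probe sets of Aplnr shared a direction but differed widely in size, by 2.10 on the log2 scale. Over the 5213 genes with at least 2 kept probe sets, the median absolute difference between the ratios of the 2 brightest was 0.20, and 6 genes, Aplnr among them, differed by 2.10 or more. With dim signals raised to 76.35 the Aplnr difference was 2.72. Both ratios are then lower bounds, so that value does not say how far apart the ratios are. The technical SD taken from such pairs, the SD of their difference divided by the square root of 2, was 0.27 over all genes. Both Aplnr probe sets were higher with FGF10, but their shared direction adds no support. A kept probe set with a control signal under 76.35 is higher on the FGF10 array by the filter itself. With both control signals under 76.35 each probe set gives only a bound for its own signal ratio on this pair of arrays. That bound was at least 2.31-fold on one probe set and at least 15.2-fold on the other, so the size for the gene is not settled. Genes whose kept probe sets, at least 2 of them, were all 2-fold higher or more numbered 21 of 5213 (0.403%), and Aplnr is 1 of these. Nothing is read from that count, because the receptor was chosen for its ratio.

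**Figure D3:**
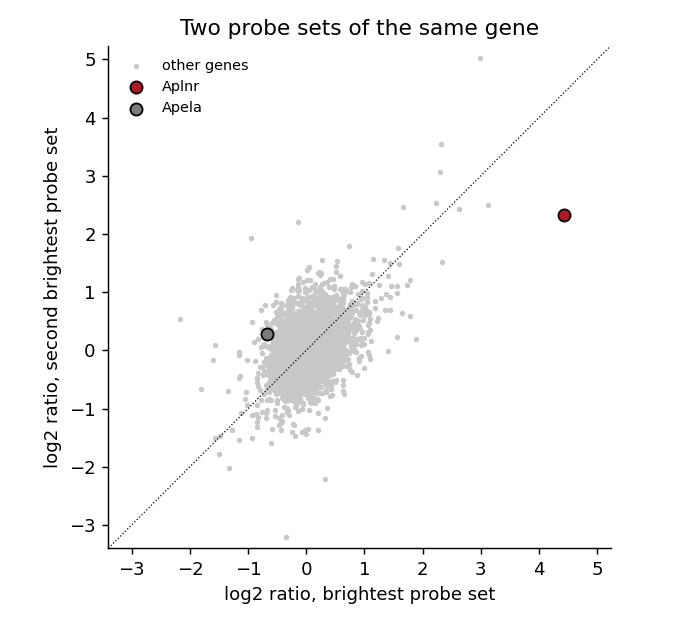
Log2 ratio of FGF10 over control on the brightest kept probe set (horizontal axis) and on the second brightest (vertical axis) for 5213 genes, with Aplnr and Apela coloured and the dotted line marking equal ratios. Aplnr is high on both, at 4.42 and 2.32, and lies far below the line of equality, while Apela has ratios of opposite sign, -0.68 and 0.27.

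The other ligand of the receptor, Apela, was lower on the FGF10 array on its brighter probe set, where Apln was higher. Probe set 1436287_at read 2062.7 in the control and 1318.9 with FGF10, a log2 ratio of -0.68 or 1.60-fold lower. The dimmer Apela probe set, 1442571_at, had signals of 104.5 and 129.4 and a ratio of 0.27, so the direction for Apela rested on the bright probe set alone. The central 98% of ratios among the 1000 probe sets nearest in brightness to the bright Apela probe set ran from -0.69 to 0.65, so its value lay just inside that range.

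Genes that process or remove the apelin peptides were mixed. Furin, the protease that cuts precursors of both ligands, had signals of 350.6 and 366.4 (log2 ratio 0.03). The related proprotein convertases Pcsk1 (0.32), Pcsk6 (-0.42) and Pcsk7 (-0.23) were within 1.5-fold. Mme, the gene for neprilysin, a peptidase that cleaves apelin, went from 186.5 to 91, a ratio of -1.07 or 2.10-fold lower. In this list of 10 genes 7 were measured, 1 (Apln) at least 1.5-fold higher and 2 (Apela and Mme) lower, with a median of -0.23, beside 5.41% of all genes higher, 4.86% lower and a median over all genes of -0.03. Klkb1 and Pcsk5 were below the signal filter.

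On their brightest kept probe sets, the G proteins and regulators that the receptor works through differed little between the arrays. So did most genes, 9980 of 11122 being within 1.5-fold. All 15 measured genes of the list of 17 for coupling and desensitisation were within 1.5-fold, with ratios from -0.40 to 0.57 and a median of 0.18. Dimmer kept probe sets of Gnaq (0.73), Gna13 (0.72) and Grk3 (0.63, or 0.51 with its dim control signal raised) went past 1.5-fold upward, and none went past it downward. The low end of -0.40 was Gng2, whose other kept probe sets ran from -0.16 to 0.45. Gnai3, an inhibitory alpha subunit, had signals of 7154.6 and 7610.1 (0.05), Gnai2, another, had 3270.2 and 4064.1 (0.28), and the beta subunit gene Gnb1 had 4738.7 and 5808.3 (0.26). The arrestin genes Arrb1 (0.17) and Arrb2 (0.07), whose products turn the receptor off and carry it into the cell, were near 0, and the receptor kinase gene Grk3 was at 0.53.

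Effector genes of apelin signalling, each read from its brightest kept probe set, were likewise within 1.5-fold. These were 10 of 10 measured genes in a list of 16, with a median of 0.03, a count near the 9980 of 11122 over all genes. The histone deacetylase gene Hdac5 had signals of 514 and 698.3 (0.41), and Mef2a, a transcription factor that class IIa deacetylases such as Hdac5 hold back, had 609.6 and 662.9 (0.09). The kinase genes Akt1 (-0.18) and Akt2 (0.16) and the AMPK subunit genes Prkaa1 (0.26) and Prkaa2 (-0.16) lay close to 0 on these probe sets. Dimmer kept probe sets of the list's genes went past 1.5-fold in both directions. They were upward for Akt1 (1.13, or 0.52 with its dim control signal raised) and Hdac4 (0.87). They were downward for Prkaa2 (-0.60) and Mef2d (-1.48, or -1.13 with its dim FGF10 signal raised). Nos3, the endothelial nitric oxide synthase, was dim at 154.2 and 112.8 (-0.49). Mef2c and the vascular connexin genes Gja4 and Gja5 were under 76.35 on both arrays on their brightest probe sets.

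Among related rhodopsin-family receptors both receptors of the chemokine Cxcl12 were higher with FGF10, as Aplnr was, by smaller ratios. Cxcr4, its signalling receptor, went from 89.3 to 285.8 (1.64), and Ackr3, its scavenging receptor, from 69.9 to 144.8 (1.02, or 0.89 with the dim control signal raised). These were the 2 higher genes of 7 measured in a list of 16, with 0 lower and a list median of -0.20. Over all measured genes 5.41% were at least 1.5-fold higher and 4.86% lower. The bright receptors of the list were within 1.5-fold: Lpar4, a lysophosphatidic acid receptor, had signals of 4862.9 and 4198.9 (-0.25), and F2r, the thrombin receptor, 3516.2 and 2916.7 (-0.30). Agtr1a, an angiotensin receptor close to Aplnr in sequence, was dim at 87.4 and 77.9 (-0.20). Of the 14 receptors of this list with a probe set, 6 were under 76.35 on both arrays.

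Over these 4 lists together 39 of 59 genes were measured, 3 were past 1.5-fold upward and 2 downward, and the median was 0.05. Without Apln the median was 0.05 over 38 genes, of which 2 were higher. The shares of higher and lower genes were near those of all measured genes, and 34 of the 39 lay within 1.5-fold.

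**Figure D4:**
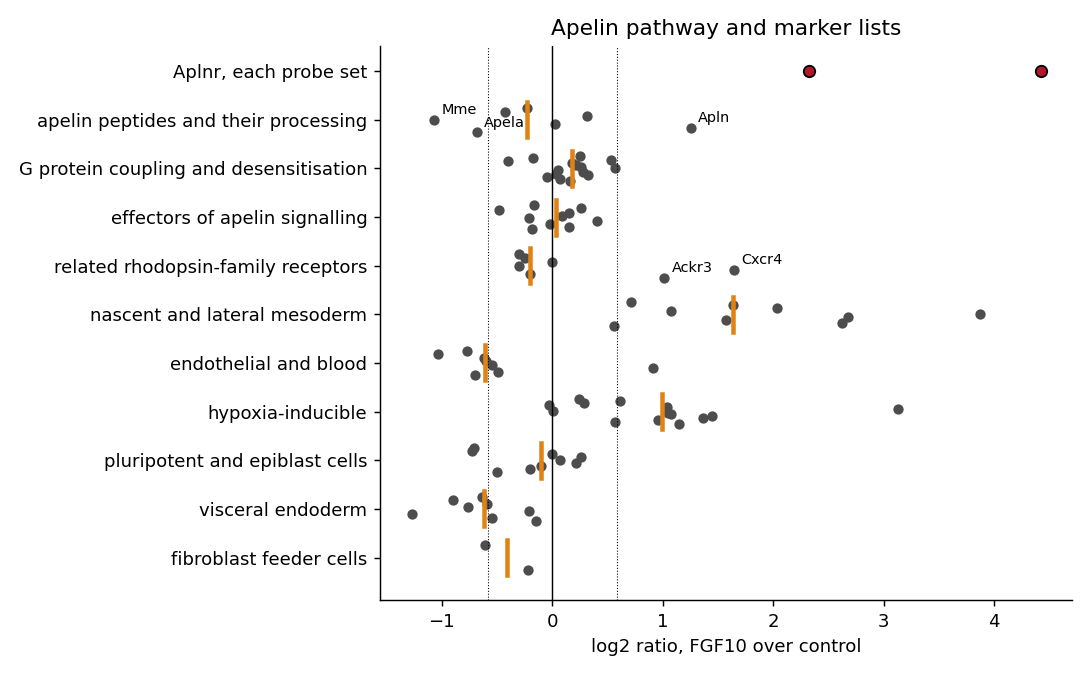
Log2 ratio of FGF10 over control for the measured genes of each list (points, brightest kept probe set of a gene; orange bars, list medians) and for both Aplnr probe sets, with dotted lines at 1.5-fold and names for apelin pathway genes past them. Coupling and effector genes lie between the dotted lines, while Aplnr, Apln, Cxcr4 and Ackr3 lie to the right and Mme and Apela to the left.

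Aplnr was set beside genes of the cells that are known to express it. In the nascent and lateral mesoderm list 8 of 9 measured genes, in a list of 14, had ratios past 1.5-fold upward and 0 downward, beside 5.41% and 4.86% of all measured genes. The list's median was 1.63 and its summed signal 3461 on the control and 13690 on the FGF10 array. Mixl1 (3.87), Mesp1 (2.68), the mesenchymal cadherin gene Cdh11 (2.62), the Wnt amplifier Rspo3 (2.03), Snai1 (1.63) and Eomes (1.58) had the largest ratios. The control signal of Snai1, 61, was under the filter, and its ratio was 1.31 with that signal raised. Tbx6, Hand1, Kdr and Foxf1, which mark later or lateral mesoderm, had mean signals below the filter and are not in these counts, and some of them were lower with FGF10. Foxf1 read 127.2 in the control and 13.4 with FGF10 on its brighter probe set and 73 and 37.2 on the other, and Kdr read 92.8 and 59.5. The part of a larger share of mesoderm cells in the Aplnr difference was not tested.

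Vascular genes, the other setting in which Aplnr is known, were mostly lower. In the endothelial and blood list 5 of 8 measured genes, in a list of 15, had ratios past 1.5-fold downward and 1 upward, beside 4.86% and 5.41% of all measured genes, and 4 downward with dim signals raised to 76.35. The list's median was -0.61 and its summed signal 2626 on the control and 1988 on the FGF10 array. Tal1, a regulator of blood and vessel progenitors, was at -1.03 (-0.79 with its dim signal raised), Tek, the angiopoietin receptor, at -0.77 (-0.53, within 1.5-fold, with its dim FGF10 signal raised), Eng at -0.70, Sox7 at -0.61 and Sox18 at -0.60, while Flt1, a VEGF receptor, was higher at 0.91. Cdh5 and Tie1, which define endothelium, were under 76.35 on both arrays, and Pecam1 went from 85.6 to 23.9. Other genes of the list stayed above 76.35 with FGF10, among them Etv2 (659 and 480.5), Lmo2 (393.9 and 275.9), Eng (432.9 and 273.2) and Flt1 (182.6 and 351.1). The part of vascular cells in the Aplnr difference was not tested. Visceral endoderm genes were also lower, 5 of 8 by at least 1.5-fold and 0 higher, beside 4.86% and 5.41% of all measured genes. Their summed signals were 11560 and 7750, and the part of these cells was not tested either.

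Apln was set beside genes induced by low oxygen, among which it is counted. Of 14 measured genes in a list of 15, 9 were past 1.5-fold upward and 0 downward, beside 5.41% and 4.86% of all measured genes; the median was 0.996 and the summed signal 61550 on the control and 81740 on the FGF10 array. Ndrg1 was at 3.13, the oxygen sensor gene Egln1 at 1.45 and the mTORC1 inhibitor gene Ddit4 at 1.37. Adm, the gene for the vasoactive peptide adrenomedullin, was at 1.15 (1.10 with its dim control signal raised), Egln3 at 1.08 and Ero1a at 1.05. The ratio of Apln, 1.26, fell within this group. Ankrd37 (0.57), Pgk1 (0.29), Vegfa (0.24), Ldha (0.01) and Pdk1 (-0.03) were within 1.5-fold, and Car9 was under 76.35 on both arrays. Whether the oxygen response had a part in the Apln difference was not tested.

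The genes nearest to Aplnr in ratio were sought among 6538 other genes whose brighter signal was at least 500, with dim signals raised to 76.35. None of them had a higher ratio than Aplnr, with each gene read from its brightest kept probe set. The nearest was Mixl1, at a distance of 0.05, followed by Ndrg1 (0.80 away), Foxa2 (0.83), the Wnt target Sp5 (0.93) and Mesp1 (1.24). Likeness over 2 arrays rests on a single ratio per gene, so it orders genes by size of difference and nothing more. Apln had 33 genes above it, Aplnr among them, when both members were counted in the set (6540 genes).

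Genes beside the members in the RefSeq annotation of assembly GRCm38.p6, the 2 nearest protein-coding genes on each side, were read after the members' values were known. Next to Aplnr, Tnks1bp1 had signals of 151.7 and 173.6 (log2 ratio 0.16), and Ssrp1, Lrrc55 and Olfr987 had no named probe set. Next to Apln, Smarca1 had 969 and 984.7 (-0.01), Ocrl 322 and 250.6 (-0.40) and Sash3 88.3 and 75.3 (-0.26), while Xpnpep2 was below the filter. The measured neighbours were within 1.5-fold, as were 9980 of all 11122 measured genes, so nothing about Aplnr or Apln is read from them.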

How the data were processed

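Total RNA of 2 samples, 1 per group, was biotin-labelled and read on Affymetrix expression arrays, 1 for each sample. The deposited values are MAS5 signal intensity per probe set, linear, and the tool's name comes from the submitters' processing notes, which state no settings; the trimmed mean, without the lowest and highest 2% of values, was 500.003 on both arrays, so a difference in total RNA between samples is not seen. MAS5 makes dim values noisy, and present or absent calls were not used. The number of arrays limits the precision. Of 45101 probe sets 64 were chip controls. Genes came from the platform annotation (932 probe sets with several genes and 9160 with none were left out of gene counts), and 0 symbols needed an update through the RefSeq gene table. The build behind the array's annotation is not given in the sources used here, so the GRCm38.p6 gene table served only for symbols and neighbouring genes and no coordinates are printed.

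Ratios were log2 of FGF10 over control without a pseudocount, centred by subtracting 0.034, the median of the 22524 kept probe sets, and a gene took its brightest kept probe set (11122 genes). Dim signals were raised to 76.35 to bound a ratio. Lists were described by counts at 1.5-fold and medians, with no test. The members, gene lists, thresholds and alternatives were chosen with earlier results of these data known. Named genes are every probe set of Aplnr and Apln, in the 4 apelin lists the measured members past 1.5-fold, the brightest 2, and Apela and Cxcr4 always (1 further list gene is not reported here), in other lists up to 6 members of largest absolute ratio, and the 5 genes nearest to Aplnr in ratio; other names were chosen for their role or position after values were seen. The alternatives were no centring, quantile and loess normalization, an offset at the 25th percentile of signal (20.5), dim signals raised, the signal filter removed or set to the 75th percentile, the mean over probe sets, no _x_at or _s_at probe sets, and thresholds of 1.5-fold and 3-fold. The procedure was tested on simulated data with planted ratios. The simulated spread was the same at every signal and no background was added, so it does not bear on dim control signals. Python 3.11.15, pandas 2.3.3 and statsmodels 0.14.6 were used.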

Additional observations from a re-analysis of the deposited data

How the results depend on the processing

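The log2 ratio of Apln moved by less than the technical SD of its signal group (0.27) under 5 of 5 alternatives, from 1.20 to 1.29. Raising dim signals could not move it, since both Apln signals lay above 76.35, and leaving out the centring only added the constant 0.034. Neither Aplnr probe set changed direction, which is given for a kept probe set whose control signal is under the filter. The brighter one moved to 3.99 with the offset, to 3.92 with dim signals raised and to 3.37 as the mean over probe sets, and the dimmer one to 1.82 with the offset and to 1.21 with dim signals raised; each of these settings lessens the weight of the dim control signal or averages it with the other probe set. Without a signal filter 7 apelin pathway genes passed 1.5-fold upward and 6 downward, against 3 and 2, and at the 75th percentile 1 and 1, and all genes past 2-fold numbered 1459 higher and 1805 lower without a filter and 42 and 14 at the 75th percentile. With dim signals raised, 112 genes were 2-fold higher and 87 lower, against 147 and 144. All genes past 1.5-fold numbered 602 higher and 540 lower, and past 3-fold 43 and 26. No paired analysis was possible because each group has 1 array, and for the same reason no array could be left out. Signal over background limits both Aplnr probe sets on the control array. Each gives only a lower bound for its own signal ratio between this pair of arrays, and the bounds differ between the probe sets.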
